A study of Arabidopsis thaliana with 12 samples.

Results

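The seedlings labelled *ali1* and those labelled Col-0 were compared after the solvent pretreatment and flg22, that is, without the bacterial signal. The comparison used the 6 acetone libraries, 3 under each label, out of 12 libraries in the series. Of 36101 loci in the tables, 17066 had an FPKM (fragment density, scaled for transcript length and library size) of at least 1 in either acetone group and entered the comparison. All groups were 2-week-old *Arabidopsis thaliana* seedlings in liquid medium that received either acetone or 6 µM oxo-C14-HSL, a long-chain *N*-acyl homoserine lactone used by bacteria as a quorum-sensing signal, for 3 days and then 100 nM flg22, the peptide epitope of bacterial flagellin, for 2 h. Col-0 is the wild type accession, and *ali1* is 1 line that carries a T-DNA insertion in *ALI1* (*At5g14470*). The oxo-C14-HSL groups are given beside the acetone groups only as a second reading of the same labels.

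*ALI1* encodes a putative glucuronokinase of the GHMP family, whose members phosphorylate sugars, homoserine or isoprenoid precursors. In plants glucuronic acid is made by oxidation of *myo*-inositol, phosphorylated by glucuronokinase and converted to UDP-glucuronic acid, a precursor of cell wall polysaccharides. The flagellin receptor FLS2 and its partner BAK1 start MAP kinase signalling, an oxidative burst and rapid transcription of defence genes within minutes to hours of flg22.

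The tables hold 1 FPKM value per group, pooled by the authors over its 3 libraries, and each label was processed in a separate run. There is therefore no spread between replicates, no test and no p-value for any ratio below, and each value describes these groups only. A ratio is the log2 of FPKM plus 0.1 under the *ali1* label over FPKM plus 0.1 under the Col-0 label, with the median over the 17066 loci, −0.04, subtracted. Sequencing depth is not known from the files, and the precision of low values cannot be given. In whole seedlings, fewer cells of a type and less RNA per cell cannot be told apart.

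*ALI1* was examined first as a check of the labels. After acetone its FPKM was 14.98 under the Col-0 label and 27.4 under the *ali1* label, a centred log2 ratio of 0.91, or 1.88-fold. After oxo-C14-HSL the values were 11.1 and 30.1, a centred log2 ratio of 1.46. The transcript named for the insertion line was thus at the higher level in the groups that carry its label, at rank 401 from the highest of 17066 ratios after acetone and rank 64 of 17265 after oxo-C14-HSL. How an insertion in this gene changes the reads counted over it was not tested here. The study's own PCR of *ALI1* transcript in this line was not used. The description that GEO holds for each library names the table of the other genotype. The sample titles and the group names inside the tables give the labels used here. From these values, a wrong label on the tables and more transcript mapping to the gene in the line cannot be told apart. The values are per gene and not per exon. If the tables were exchanged, every ratio below would keep its size and change its sign, so groups are called by their labels throughout.

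The difference at *ALI1* did not extend to the genes around it. *ALI1* has 6 exons between positions 4662775 and 4664681 of chromosome 5, minus strand, in the reference TAIR10.1. The 10 loci with an FPKM of at least 1 on each side, between 4627140 and 4715076, had centred log2 ratios from −0.19 to 0.38 after acetone, with a median of 0.01. Its direct neighbours, *At5g14460* and *At5g14480*, were at −0.03 and 0.02. After oxo-C14-HSL 19 of these 20 loci again lay within 0.44 of 0, and the remaining locus, the long noncoding RNA *At5g02225*, was at −1.18. The plot of the region shows *ALI1* alone above its neighbours in both pretreatments.

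**Figure D1:**
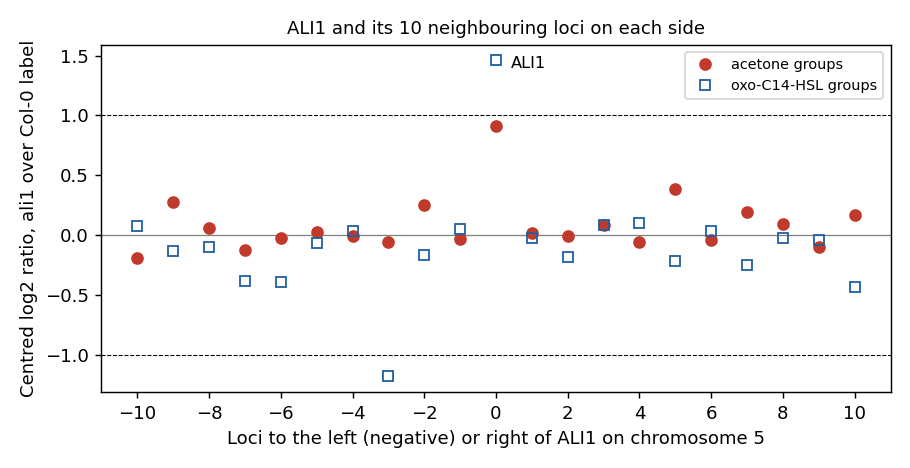
Centred log2 ratio of FPKM, *ali1* over Col-0 label (vertical axis), for *ALI1* and the 10 loci on each side in chromosomal order (horizontal axis); filled circles are the acetone groups and open squares the oxo-C14-HSL groups, 1 pooled value each, and dashed lines mark 2-fold. After acetone *ALI1* lies at 0.91 and its neighbours between −0.19 and 0.38.

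None of the relatives of *ALI1* in the GHMP list differed by 2-fold. Of 8 members kept, 7 were measured as loci of their own, all passed the filter, and none other than *ALI1* had a ratio above 0.33 or below −0.26. The homoserine kinase gene *HSK* was at 13.9 and 17.0 FPKM under the Col-0 and *ali1* labels, and *ISPE*, a kinase of plastid isoprenoid synthesis, at 16.4 and 13.3. The sugar kinases of the list other than *ALI1* were closer still. The fucose salvage gene *FKGP* gave 6.97 and 8.03, the galacturonokinase gene *GALAK* 3.08 and 3.43, and the arabinose kinase gene *ARA1* 6.10 and 5.43. Mevalonate decarboxylase *MVD1* gave 12.5 and 13.8, and the mevalonate kinase gene *MK* shares its locus with a neighbour and could not be read alone. The paralogue *GLCAK*, the other glucuronokinase gene, was at 25.8 and 24.7, and the galactokinase gene *GALK* at 14.9 and 15.5. These last genes are listed in the reference under symbols other than those of the list and were added after their values were seen.

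The pathway on either side of glucuronokinase was also within 2-fold. Of 16 members kept in the glucuronic acid and UDP-sugar list, 14 passed, 8 above and 6 below 0, with a median of 0.10. The lowest ratios were those of a pair of *myo*-inositol oxygenase genes, whose enzymes supply glucuronic acid. *MIOX4* was at 39.6 FPKM under the Col-0 label and 25.6 under the *ali1* label, a log2 ratio of −0.58. *MIOX2* was at 250.02 and 182.0, a ratio of −0.41. The weakly expressed *MIOX1* of the same family was at 1.78 and 1.63 (−0.08). The UDP-glucose dehydrogenase genes, which make UDP-glucuronic acid by the other route, lay on the opposite side of 0. *UGD2* was at 79.0 and 93.8, a ratio of 0.29, and *UGD3* at 45.2 and 53.3, a ratio of 0.28. *GAE6*, an epimerase that turns UDP-glucuronic into UDP-galacturonic acid for pectin, was at 100.1 and 118.0, a ratio of 0.28. After oxo-C14-HSL each of these 5 genes had a ratio of the same sign, at −0.91, −0.58, 0.21, 0.40 and 0.44 in the order given.

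Across all loci the groups were close. Of the 17066 loci, 92.5% lay within 1.5-fold, and the SD of the centred log2 ratio over loci was 0.48. At least 2-fold higher under the *ali1* label were 312 loci (1.83% of those measured) and at least 2-fold lower were 131 (0.768%). The balance depended on the centring: with a running median over expression level the counts were 234 and 173, so that the higher loci made up 57.5% in place of 70.4%. The 2-fold loci were mostly weakly expressed. In the lowest eighth of mean FPKM, between 0.51 and 2.09 FPKM, 178 loci were higher and 76 lower and the median ratio was 0.17. In the top eighth, from 67.1 FPKM, 9 were higher and 6 lower and the median was −0.02. The threshold has no gap around it: *At5g39670* at 1.00 (3.47 and 6.83 FPKM) was counted and *At3g06145* at 0.999 (3.18 and 6.26 FPKM) fell just short.

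**Figure D2:**
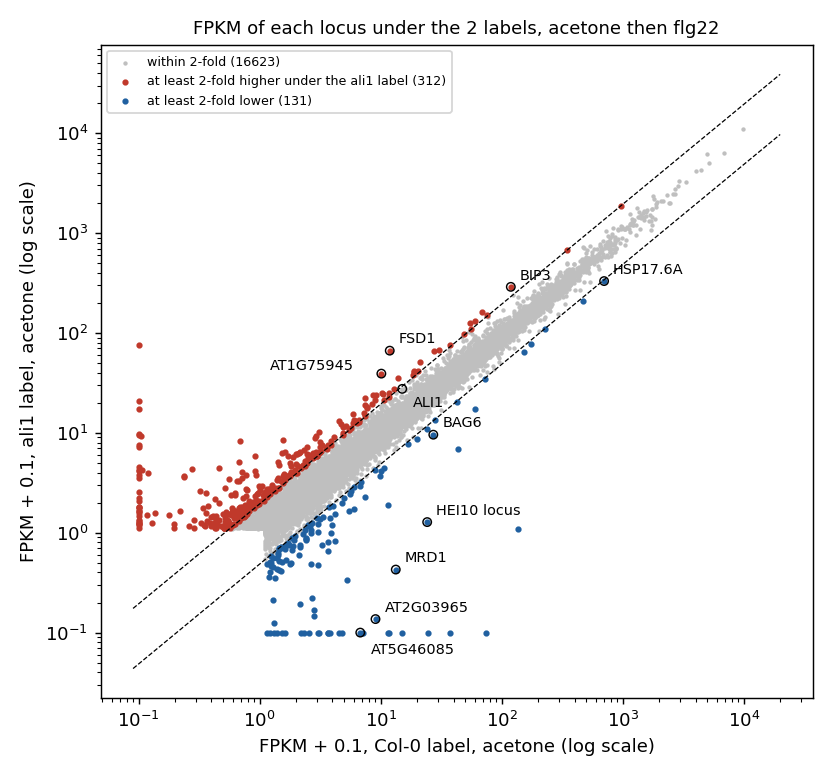
FPKM plus 0.1 of each of 17066 loci under the Col-0 label (horizontal, log scale) and the *ali1* label (vertical, log scale) after acetone and flg22, 1 pooled value per group; red points are the 312 loci at least 2-fold higher under the *ali1* label, blue points the 131 at least 2-fold lower, grey points the 16623 between, and dashed lines mark 2-fold around the median. *ALI1* (14.98 and 27.4) lies just inside the upper line, and *MRD1*, the *HEI10* locus and *At2g03965* lie far below the lower line.

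The share of loci past 2-fold varied with the kind of transcript. Protein-coding genes measured alone passed 2-fold in 1.97% of cases, 232 higher and 60 lower of 14845. Of 405 long noncoding RNAs, 32 were higher and 44 lower (18.8%). The small nucleolar RNAs, guides of RNA modification that usually lack a poly(A) tail, passed in 15 of 22 cases, with 7 higher and 8 lower, and annotated antisense RNAs in 17 of 24. Their values were often 0 on 1 side: 28 of the 312 higher loci were listed at 0 under the Col-0 label and 24 of the 131 lower loci at 0 under the *ali1* label, and only 4 and 6 of these encode proteins. Between 2.36% and 2.76% of loci passed 2-fold on each of the 5 nuclear chromosomes. Of 45 chloroplast loci, 44 were left out because the run of 1 label or of both had not quantified them.

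The oxo-C14-HSL groups gave a second pair of values under the same labels. These pairs share no library, although each label's acetone and oxo-C14-HSL groups were scaled in 1 run. After oxo-C14-HSL 106 loci (0.614%) were at least 2-fold higher and 259 (1.5%) at least 2-fold lower under the *ali1* label. Of the 312 higher loci, 252 were also measured after oxo-C14-HSL, where 21 (8.33%) were again at least 2-fold higher and 40 were at least 2-fold lower. Of the 131 lower loci, 97 were measured and 31 (32.0%) were again at least 2-fold lower, against 8 that were at least 2-fold higher. Only these 52 loci were past 2-fold the same way in both pairs. Among the 312 higher loci the Col-0 acetone group was the lowest of all 4 groups in 263, and among the 131 lower loci it was the highest in 103. The *ali1* acetone group was the highest of the 4 in 223 of the former and the lowest in 99 of the latter. The loci were chosen by these same acetone values, so these counts do not single out either group.

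**Figure D3:**
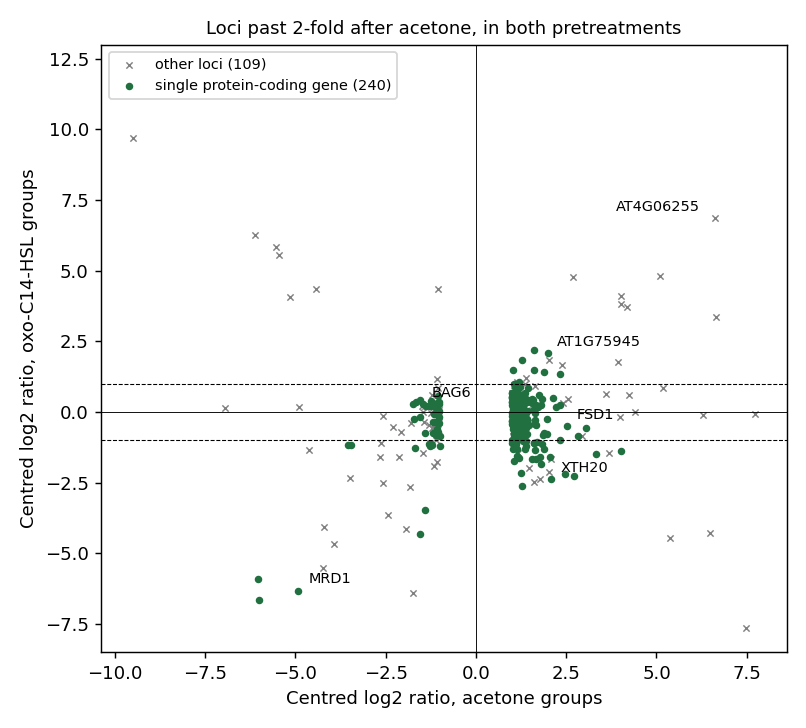
Centred log2 ratio after acetone (horizontal) and after oxo-C14-HSL (vertical) for the 349 loci past 2-fold after acetone that were measured in both pairs; green circles are the 240 single protein-coding genes, grey crosses the 109 other loci, and dashed lines mark 2-fold after oxo-C14-HSL. Most circles on the right lie between the dashed lines, 21 loci on the right lie above the upper line and 31 on the left lie below the lower line.

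Under the rule for named loci, with at least 5 FPKM in the higher acetone group and 1 gene per locus, 7 loci were at least 2-fold lower in both pairs, and 3 of them encode proteins. *MRD1* (*At1g53480*), a gene first described for its low transcript in a methionine over-accumulating mutant, was at 13.2 FPKM under the Col-0 label and 0.33 under the *ali1* label after acetone, and at 14.5 and 0.08 after oxo-C14-HSL. Its centred log2 ratios were −4.92 and −6.32. The minus strand of chromosome 1 holds *MRD1* between 19963047 and 19964712. Over 1446 bases it overlaps *HEI10*, which runs from 19963267 to 19966952 on the plus strand and encodes a RING protein needed for meiotic crossovers. The locus that joins *HEI10* with the long noncoding RNA *At1g07887* was at 24.1 and 1.18 FPKM after acetone and at 24.2 and 1.32 after oxo-C14-HSL, and was named after its values were seen. The sources used here do not state whether counting used strand, so reads of these overlapping genes cannot be told apart.

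*At2g03965*, a gene for an uncharacterized protein on chromosome 2 from 1251510 to 1252989, was at 8.97 and 0.04 FPKM after acetone and at 12.4 and 0.02 after oxo-C14-HSL. The antisense long noncoding RNA inside it, *At2g04655*, had 2.74 and 0.05, and then 4.53 with 0 listed under the *ali1* label. The small gene *At5g46085*, on chromosome 5 from 18693316 to 18693567 and overlapping *At5g46090* by 83 bases, was at 6.69 and 6.08 FPKM under the Col-0 label and was listed at 0 in both groups labelled *ali1*. The other 4 of the 7 loci are noncoding. The most abundant of these was the antisense RNA *At3g02475*, at 43.8 and 6.71 after acetone and 26.8 and 8.66 after oxo-C14-HSL. Of the protein-coding genes, *At2g03965* and *At5g46085* were thus below 0.1 FPKM in both groups labelled *ali1* and above 5 FPKM in both groups labelled Col-0, while *MRD1* was at 0.33 in the *ali1* acetone group.

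In the other direction 7 loci were at least 2-fold higher in both pairs, 4 of them protein-coding. *At1g75945*, on chromosome 1 from 28515245 to 28515916 and without a known function, was at 10.0 FPKM under the Col-0 label and 39.0 under the *ali1* label after acetone, and at 10.5 and 43.8 after oxo-C14-HSL. *At1g02705* was at 7.31 and 22.02, and then at 9.85 and 27.2. *At2g18685*, which lies inside *At2g18680* on the other strand, was at 7.59 and 18.1, and then at 6.13 and 21.7. *At1g77640*, an AP2/ERF transcription factor of the DREB subfamily, was at 2.86 and 5.74, and then at 2.76 and 7.78. These 4 genes differed by similar amounts in the pretreatments, with log2 ratios from 1.03 to 1.99 after acetone and from 1.48 to 2.07 after oxo-C14-HSL. The small nucleolar RNA *At4g06255* was listed at 0 in both groups labelled Col-0 and at 9.52 and 11.4 in those labelled *ali1*. *At3g08170*, an antisense RNA that lies wholly within *At3g50950*, was listed at 0 in the Col-0 acetone group.

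Among the 26 gene lists the heat shock list had the lowest median. Heat shock factors bind heat shock elements in promoters and raise the chaperones that refold or hold damaged proteins. Of 19 members kept, 15 passed the filter, 13 of them with a ratio below 0, 6 at least 2-fold lower and none at least 2-fold higher, against 0.768% and 1.83% of all loci. The list median was −0.80 in the acetone pair and 0.38 in the oxo-C14-HSL pair. The Col-0 acetone group was the highest of the 4 groups in 12 of the 15, and the *ali1* acetone group the lowest in 7. How many of all loci had these orders was not counted.

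*BAG6*, a calmodulin-binding co-chaperone, had the lowest ratio of the list, with 27.1 FPKM under the Col-0 label and 9.48 under the *ali1* label after acetone (−1.46), and 13.6 and 16.3 after oxo-C14-HSL. The cytosolic chaperone gene *Hsp70b* followed with 10.0 and 4.04 after acetone (−1.25), and 4.07 and 5.26 after oxo-C14-HSL. *MBF1C*, a transcriptional coactivator of thermotolerance, was at 174.8 and 77.6 (−1.13), and then at 88.6 and 97.7. In all 3 genes the Col-0 acetone value was the highest of the 4 groups and the *ali1* acetone value the lowest. Of the 131 loci at least 2-fold lower, these orders held in 103 and 99. The small heat shock protein gene *HSP17.6A* was at 701.8 and 330.5 (−1.04), and then at 301.4 and 436.5. *HSP101*, the disaggregase of acquired thermotolerance, was at 228.3 and 108.7 (−1.03), and then at 121.9 and 151.8. The abundant members *HSP70* (1750 and 1213 FPKM, −0.49) and *HSP90.1* (1712 and 1077 FPKM, −0.63) lay below 0 but within 2-fold. The exceptions were the constitutive *HSC70-1* at 2924 and 3283 (0.21) and *HSP18.2* at 1.24 and 1.72 (0.48). Outside the list, and named after their values were seen, the small heat shock protein genes *At1g54050* (59.7 and 17.2), *At1g59860* (86.0 and 43.4) and *At5g37670* (7.51 and 3.63) and the repressor *HSFB2A* (18.3 and 9.01) were also lower under the *ali1* label.

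The sequence upstream of these genes was searched for the heat shock element GAANNTTC in the 250 bases before each annotated start, on both strands. It was found in 4 of the 15 members of the list and in 9.09% of 14845 protein-coding genes of the comparison. Among the protein-coding genes at least 2-fold lower it was found in 7 of 60 (11.7%) and among those at least 2-fold higher in 18 of 232 (7.76%). With the inward form TTCNNGAA, added after the data were seen and overlapping the former in some promoters, the counts were 6 of 15 in the list and 15.5% of all. The following promoters are shown because they belong to the member with the lowest ratio, the most abundant member past 2-fold and the member with the most elements. They were read from the RefSeq reference TAIR10.1, written 5′ to 3′ on the gene's strand, with both forms of the element in capitals, at chr2:18985883-18986132 (plus strand), chr5:3884839-3885088 (minus strand) and chr3:16984868-16985117 (minus strand).
BAG6: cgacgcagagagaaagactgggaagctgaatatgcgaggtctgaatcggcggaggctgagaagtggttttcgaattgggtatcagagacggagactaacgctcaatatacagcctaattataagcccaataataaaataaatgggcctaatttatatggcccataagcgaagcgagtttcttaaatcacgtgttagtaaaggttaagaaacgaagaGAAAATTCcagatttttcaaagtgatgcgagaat
HSP17.6A: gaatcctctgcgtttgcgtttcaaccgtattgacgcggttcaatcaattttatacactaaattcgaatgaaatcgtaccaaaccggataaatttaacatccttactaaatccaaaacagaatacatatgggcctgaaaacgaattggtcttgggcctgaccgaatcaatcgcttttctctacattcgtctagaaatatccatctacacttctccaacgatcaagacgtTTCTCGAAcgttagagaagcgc
HSP17.4: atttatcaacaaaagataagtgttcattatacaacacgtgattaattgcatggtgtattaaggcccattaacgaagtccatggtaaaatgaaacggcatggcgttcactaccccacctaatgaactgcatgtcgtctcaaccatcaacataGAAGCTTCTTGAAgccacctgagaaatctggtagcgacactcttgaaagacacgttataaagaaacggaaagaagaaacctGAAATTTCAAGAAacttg

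*BAG6* holds 1 element and *HSP17.6A* 1, while *HSP17.4*, at 94.2 and 51.5 FPKM (−0.82), holds 4 that overlap in pairs. *Hsp70b*, *MBF1C*, *HSP101* and *HSP23.6-MITO*, the other members at least 2-fold lower, hold neither form in this window. Among other motifs, the W-box core TTGACC or TTGACT, the site of WRKY factors, stood in 93 of 232 promoters of the higher genes (40.1%), 16 of 60 of the lower (26.7%) and 29.0% of all. The G-box CACGTG was in 5.603%, 8.33% and 7.75%, and the evening element AAAATATCT in 5.17%, 1.67% and 2.73% of the same sets. The abscisic acid response element ACGTGTC was in 3.02%, 6.67% and 4.45%.

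The glucosinolate and camalexin list had the highest median, 0.78 after acetone against −0.10 after oxo-C14-HSL. Glucosinolates are sulfur-rich defence compounds of Brassicaceae made from methionine or tryptophan, and camalexin is the indolic phytoalexin of *Arabidopsis*. Of 26 members kept, 21 passed the filter, 20 of them above 0 and 5 at least 2-fold higher, against 1.83% of all loci. The Col-0 acetone group was the lowest of the 4 groups in 17 of 21, and the *ali1* acetone group the highest in 12. Here too the share of all loci was not counted. Of the 5, *CYP81F3* passed the filter only through the group where it was higher. *MAM3* (*IMS2* in the files), which elongates the methionine side chain, was at 1.63 FPKM under the Col-0 label and 5.83 under the *ali1* label after acetone (1.82), and 1.91 and 2.65 after oxo-C14-HSL. *CYP79F1* and *CYP79F2*, which open the aliphatic core pathway, each had ratios near 2-fold. *CYP79F1* was at 6.25 and 12.3 (1.01), and then at 9.70 and 8.66. *CYP79F2* was at 6.55 and 12.8 (1.00), and then at 8.71 and 12.3. *CYP71A12*, an enzyme of indolic defence compounds, was at 2.97 and 10.0 (1.76), but at 12.7 and 4.13 after oxo-C14-HSL. *CYP81F3*, which modifies indole glucosinolates, was at 0.48 and 1.41 (1.43). Only *IGMT1*, a methyltransferase of indole glucosinolates, lay below 0, at 79.4 and 60.4 (−0.35).

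**Figure D4:**
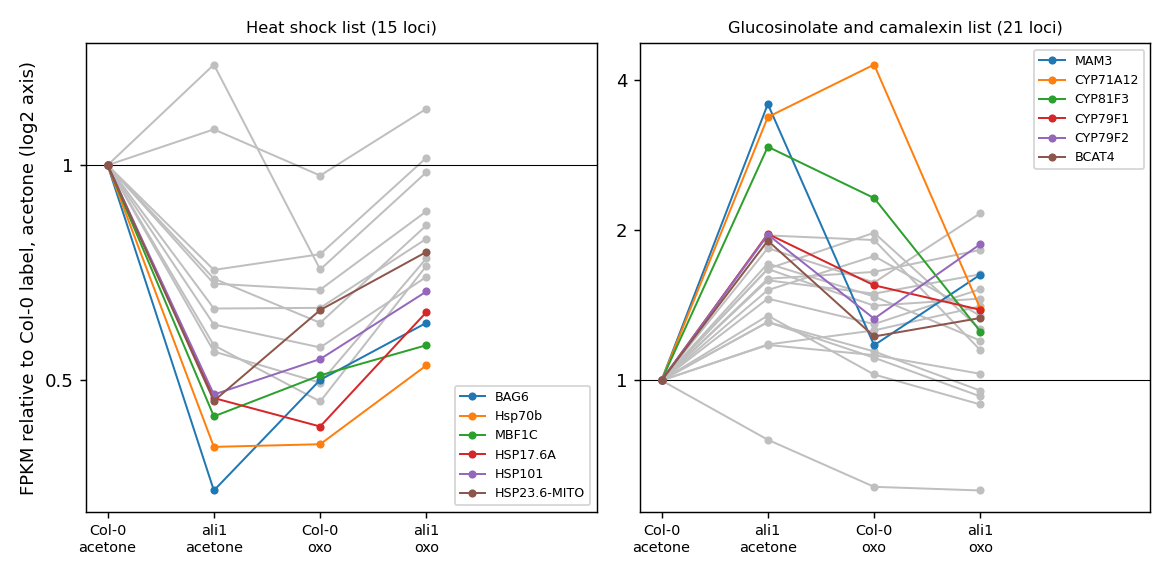
FPKM of each member of the heat shock list (left, 15 loci) and the glucosinolate and camalexin list (right, 21 loci) in the 4 groups, each divided by its value in the Col-0 acetone group (vertical, log2 axis); lines join the values of 1 gene, the 6 genes with the largest ratio after acetone are coloured and the others grey. The Col-0 acetone group is the highest of the 4 in 12 of 15 heat shock genes and the lowest in 17 of 21 glucosinolate and camalexin genes. The lists shown have the lowest and highest acetone medians, so these counts do not single out either acetone group. The share of all loci with these orders was not counted.

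The early flg22 genes were close under both labels. Of 30 members kept, 27 passed the filter, 13 above and 14 below 0, with a median of −0.02 and none past 2-fold. The receptor kinase gene *FRK1*, a standard flg22 reporter, was at 396.3 and 394.5 FPKM. *FLS2*, the flagellin receptor, was at 19.5 and 13.9 (−0.45), the lowest of the list, and *PROPEP2*, the precursor of a danger peptide, at 4.00 and 6.43 (0.72), the highest. *PROPEP3* was at 70.1 and 95.7 (0.49). *LYK5*, a chitin receptor, was at 5.54 and 7.21 (0.42), and *WRKY53* at 61.4 and 76.6 (0.36). The quantitative PCR list held genes that the study followed in this way and its reference gene *UBC21*. *TLP5* and *ALI1*, which the study also measured, are not in the list, and *GSTF8* shares its locus and was left out. The list had a median of −0.23 over 5 members, *UBC21* among them. Those farthest from 0 were *DFR* of anthocyanin synthesis at 53.9 and 28.7 (−0.86) and *HSP70* at 1750 and 1213 (−0.49). The transcription factor gene *WRKY22* was at 780.3 and 643.8 (−0.23), *WRKY29* at 193.4 and 184.9 (−0.02) and the reference gene *UBC21* at 43.9 and 42.7 (0.00).

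The hormone lists of defence had medians above 0 after acetone and near 0 after oxo-C14-HSL. In the salicylic acid list 16 of 21 members passed, with a median of 0.26 after acetone and 0.04 after oxo-C14-HSL. Of these, 12 were above 0 and 2 at least 2-fold higher, against 1.83% of all loci. Of these 16, 4 passed the filter only through the *ali1* group where they were higher, *PBS3* among them. All 4 count among the 12 above 0. With a mean of at least 1 FPKM the median was 0.18, but that filter still kept *PBS3* and *SARD1* of the 4. A median without all 4 was not computed. *PBS3*, which conjugates a salicylic acid precursor, was at 0.67 FPKM under the Col-0 label and 3.65 under the *ali1* label after acetone (2.32), and 3.27 and 3.83 after oxo-C14-HSL. *PR5*, a thaumatin-like pathogenesis-related protein gene, was at 8.38 and 19.2 (1.23), and then at 18.0 and 14.1. For both genes the Col-0 acetone value was the lowest of the 4. The same held in 263 of the 312 loci at least 2-fold higher. *NIMIN1*, an interactor of the salicylic acid receptor NPR1, was at 0.49 and 1.00 (0.95). The synthesis gene *ICS1* at 16.2 and 26.5 (0.75) lay within 2-fold, *DLO1*, which degrades salicylic acid, was at 2.97 and 1.57 (−0.84), and *PR1* was listed at 0 in all 4 groups.

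In the jasmonate list 21 of 27 members passed, 20 of them above 0, with a median of 0.30. *TAT3*, a tyrosine aminotransferase and jasmonate marker, was at 10.5 and 21.1 (1.04), and at 13.7 and 26.6 after oxo-C14-HSL. The synthesis genes were within 2-fold, with *AOC3* at 10.6 and 19.0 (0.89) and *LOX2* at 12.8 and 18.3 (0.56). *CYP94C1*, which oxidizes the active hormone, was at 15.8 and 11.2 (−0.45) and was the single member below 0.

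Chaperones of the endoplasmic reticulum lay on the opposite side of 0 from the heat shock list after acetone, but on the same side after oxo-C14-HSL. All 11 members passed the filter, 9 above 0, with a median of 0.31 after acetone and 0.34 after oxo-C14-HSL. *BIP3*, the stress-induced form of the luminal Hsp70, was at 118.9 FPKM under the Col-0 label and 289.2 under the *ali1* label (1.33), and at 157.0 and 240.5 after oxo-C14-HSL. *CRT1b*, a calreticulin gene, was at 474.3 and 720.4 (0.65), and then at 522.8 and 660.1. The luminal Hsp90 gene *SHD* was at 731.8 and 1038 (0.55), and *BIP2* at 1151 and 1549 (0.47). Here both groups labelled *ali1* were above both groups labelled Col-0 in each of these 4 genes.

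The 6 sugar and dark starvation genes were all below 0, with a median of −0.52 after acetone and −0.48 after oxo-C14-HSL, and none was past 2-fold after acetone. *ASN1*, the dark-induced asparagine synthetase gene, was at 75.4 and 47.3 (−0.63), and at 91.1 and 43.2 after oxo-C14-HSL. The beta-glucosidase gene *DIN2* was at 135.9 and 84.5 (−0.64), and *SEN1* at 206.9 and 136.1 (−0.56). The branched-chain amino acid genes *BCAT2* at 107.9 and 75.2 (−0.48) and *DIN4* at 30.1 and 21.3 (−0.45) were similar.

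Of 20 flavonoid members kept, 18 passed, 7 above and 11 below 0, with a median of −0.03. Chalcone synthase *TT4*, the first step, was at 216.3 and 210.2 FPKM (0.00). The lowest ratios were those of late anthocyanin genes. *LDOX*, anthocyanidin synthase, was at 27.8 and 13.3 (−1.02), the single member past 2-fold. *DFR*, which makes leucoanthocyanidins, was at 53.9 and 28.7 (−0.86), *UF3GT*, an anthocyanin glycosyltransferase, at 6.30 and 3.03 (−0.99), and the transport glutathione transferase *TT19* at 31.3 and 16.8 (−0.86). The regulator *TT8* followed at 6.06 and 3.84 (−0.60), and then the earlier steps *F3H* at 112.4 and 83.6 (−0.38) and *TT7* at 5.83 and 4.33 (−0.38), while the other 4 members below 0 lay between −0.11 and −0.02. *UGT78D1*, a flavonol rhamnosyltransferase, lay on the other side at 7.47 and 11.9 (0.70). After oxo-C14-HSL *LDOX* was at 28.6 and 24.6 and *DFR* at 57.2 and 49.4, so the *ali1* acetone group was the lowest of the 4 for both.

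Growth and nutrient lists held a few large ratios among mostly small ones. Of 25 cell wall genes kept, 12 passed, with a median of 0.20 and 3 at least 2-fold higher, against 1.83% of all loci. Of the 3, *XTH19* passed the filter only through the *ali1* group. The xyloglucan endotransglucosylase gene *XTH20* was at 1.42 and 6.16 (2.09) and *XTH19* at 0.23 and 1.16 (1.97, or 0.85 with a pseudocount of 1), while the expansin gene *EXPA15* was at 1.89 and 6.08 (1.68). After oxo-C14-HSL their ratios were −2.37, −0.24 and −0.45. *EXPA1* was at 16.0 and 23.4 (0.59), and the cellulose synthase genes *CESA1*, *CESA3* and *CESA6* were between 0.01 and 0.19. In the auxin list 14 of 25 passed, with a median of 0.41 after acetone and −0.46 after oxo-C14-HSL. The influx carrier genes *LAX3* (3.45 and 6.88, 1.02) and *LAX2* (2.19 and 3.91, 0.85) and the conjugating enzyme gene *GH3.3* (4.47 and 8.64, 0.98) led it, and after oxo-C14-HSL they were at 0.19, −0.46 and −0.87. Of 13 phosphate starvation genes 6 passed, with a median of 0.52 after acetone and −0.26 after oxo-C14-HSL. *PS2* passed the filter only through the *ali1* group where it was higher, and the acetone median of the other 5, those with a mean of at least 1 FPKM, was 0.13. The phosphate sensor gene *SPX1* was at 10.4 and 24.6 (1.28), the phosphatase gene *PS2* at 0.27 and 1.21 (1.88) and the acid phosphatase gene *PAP17* at 6.67 and 12.3 (0.92). After oxo-C14-HSL all 3 lay on the other side of 0, *SPX1* at 17.9 and 11.8 (−0.57), *PS2* at 1.83 and 0.67 (−1.30) and *PAP17* at 9.12 and 7.48 (−0.26). In other nutrient lists the nitrate transporter gene *NRT2.1* was at 1.805 and 5.68 (1.64) and the nicotianamine synthase gene *NAS4*, which passed only through the *ali1* group, at 0.25 and 1.097 (1.83). After oxo-C14-HSL *NRT2.1* was at 2.80 and 2.27 (−0.27) and *NAS4* at 1.19 and 0.48 (−1.13).

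Several further lists had no member past 2-fold. The circadian clock list had a median of −0.12 over 18 members, with *FKF1* at 1.802 and 2.90 FPKM (0.70) as the largest. The hypoxia list had a median of 0.18 over 9 members, the abscisic acid list 0.17 over 17, the sulfate list 0.34 over 7 and the cell division list 0.02 over 7. The nuclear photosystem and carbon fixation genes had a median of 0.10 over 22 members, and *RBCS1A*, a Rubisco small subunit, was at 9845 and 11099 FPKM. The 6 reference genes had a median of −0.06, with the polyubiquitin gene *UBQ10* at 1866 and 1378 (−0.39) farthest from 0.

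Tissue markers were compared because seedlings can differ in organ make-up. Of 19 root markers 10 passed, none past 2-fold, with a median of 0.21 and a summed FPKM of 440.9 under the Col-0 label and 470.3 under the *ali1* label, most of it from *PYK10* (371.2 and 391.1). The endodermal gene *CASP1* (10.0 and 9.02) had a ratio of −0.10, and the root hair genes *COBL9* and *RSL4* were listed at 0 under the Col-0 label and below 0.05 under the *ali1* label. Of 14 shoot markers 11 passed, none past 2-fold, with a median of 0.21 and sums of 10899 and 12339, most of it from *RBCS1A*. Under the alternatives run the root median lay between 0.09 and 0.35 and the shoot median between 0.07 and 0.31. The lowest values came from centring with a running median over expression level. The Col-0 acetone group alone was the lowest of the 4 groups in 12 of the 18 root markers with a locus, among them 7 of the 8 that were below the filter, and in 7 of 13 shoot markers. Among markers that passed, it was the lowest in 5 of 10 for root and 6 of 11 for shoot. The share of all loci with this order was not counted. All loci in the lowest eighth of mean FPKM had a median ratio of 0.17 after acetone and −0.14 after oxo-C14-HSL. *EIR1*, the root-specific auxin efflux carrier, was at 0.06 FPKM under the Col-0 label and 0.72 under the *ali1* label after acetone, and at 0.65 and 0.34 after oxo-C14-HSL. The root meristem genes *PLT1* (0.08 and 0.41, then 0.40 and 0.18) and *PLT2* (0.05 and 0.24, then 0.34 and 0.14) had the same order. These are values below 1 FPKM in every group. With members below the filter counted as well, the Col-0 acetone group alone was the lowest in 14 of 25 of the auxin list and 10 of 24 of the cell wall list. Among members that passed, it was the lowest in 10 of 14 of the auxin list and 5 of 12 of the cell wall list. For the glucosinolate and camalexin list this was 17 of 21. After oxo-C14-HSL the endodermal genes *CASP1* (6.85 and 15.4) and *CASP4* (1.63 and 4.35) were more than 2-fold higher under the *ali1* label. Leaf and endodermal root markers were thus present under both labels, as the seedling label states. Of 15 flower and seed markers 3 passed, and all members but *PI*, *SEP3* and *EM6* were below 0.45 FPKM in every group. The floral gene *PI* was at 106.4 and 75.5 after acetone. The part of organ make-up in the ratios above was not tested.

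**Figure D5:**
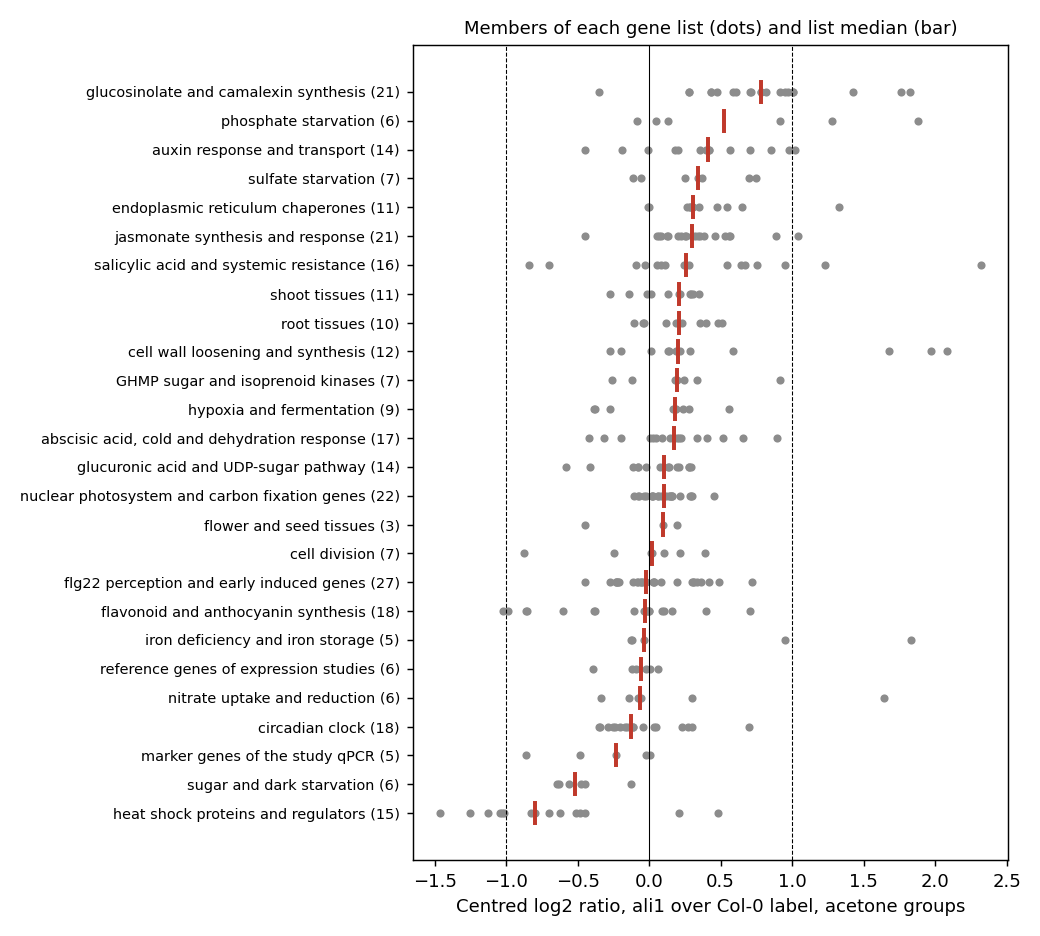
Centred log2 ratio of FPKM after acetone, *ali1* over Col-0 label (horizontal axis), for each member that passed the filter (dots) of 26 gene lists (vertical axis, number of members in brackets) with the list median (red bar); dashed lines mark 2-fold. The heat shock list is lowest (median −0.80) and the glucosinolate and camalexin list highest (0.78), against 0 over all loci.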

How the data were processed

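Seedling RNA was sequenced from 1 end. Alignment by the authors was with RNAStar, to TAIR10 per the submitters' processing notes. Those notes also name Cufflinks 2.2.1.0 and Cuffdiff 2.2.1.5, which per the methods served to assemble transcripts and to compare pretreatments within each genotype. Each group has 1 deposited FPKM value, pooled by the authors over 3 libraries and scaled within each of the 2 runs. The deposited fold changes, p-values and q-values compare oxo-C14-HSL with acetone and were not used. Here the tables were joined by locus, and the 44 loci that 1 or both of the runs had not quantified were left out. Log2 ratios were formed with a pseudocount of 0.1 FPKM and centred on the median of loci with at least 1 FPKM in either group. The calculation of the ratios was checked on simulated data, with changes planted at loci of at least 5 FPKM. That check does not cover weakly expressed loci or the noise of these data. Of 36101 loci, 1646 hold several gene names and were not used for lists, and 35997 matched a gene of the RefSeq annotation of TAIR10.1. All locus positions lie within its chromosomes.

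Gene lists, members and the rule for named genes (the *ALI1* family, up to 12 loci in each direction with at least 5 FPKM and past 2-fold in both pretreatments, loci near 0 under 1 label, the quantitative PCR genes, and up to 5 members of each list with the largest ratio) were chosen with earlier results of these data known. Genes outside the rule are marked as added, and the members at the opposite end of a list, *CESA* and tissue marker genes were also named after their values were seen. Alternatives covered the pseudocount, filter, centring, threshold and loci used. Python 3.11.15, numpy 2.4.6, pandas 2.3.3 and matplotlib 3.10.9 were used.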

Additional observations from a re-analysis of the deposited data

Results flagged for a closer look

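Under the rule for named loci, 9 protein-coding genes were at least 2-fold higher under the *ali1* label after acetone and at least 2-fold lower after oxo-C14-HSL, and so had opposite signs in the pretreatments. With 1 pooled value per group the difference was not tested. *At3g16670*, a protein of the Ole e 1 family, had a log2 ratio of 2.72 after acetone (0.81 and 5.74 FPKM under the Col-0 and *ali1* labels) and −2.27 after oxo-C14-HSL (4.00 and 0.74). For *At5g01870*, a lipid transfer protein, the ratio was 2.47 after acetone, from 1.47 and 8.34 FPKM, and −2.19 after oxo-C14-HSL, from 6.82 and 1.39. The ratios of *XTH20*, a xyloglucan endotransglucosylase, were 2.09 and −2.37, from 1.42 and 6.16 FPKM after acetone and 7.004 and 1.25 after oxo-C14-HSL. *CYP71A12*, a cytochrome P450 of indolic defence, had a log2 ratio of 1.76 after acetone (2.97 and 10.0 FPKM under the Col-0 and *ali1* labels) and −1.58 after oxo-C14-HSL (12.7 and 4.13). For *At4g22520*, a protein of the lipid transfer superfamily, the ratio was 1.62 after acetone, from 2.03 and 6.22 FPKM, and −1.09 after oxo-C14-HSL, from 14.3 and 6.56. The ratios of *At4g22517*, a close neighbour of the same superfamily, were 1.31 and −1.03, from 27.5 and 66.2 FPKM after acetone and 90.7 and 43.7 after oxo-C14-HSL. *At3g13610*, a 2-oxoglutarate-dependent oxygenase of scopoletin synthesis, had a log2 ratio of 1.08 after acetone (3.59 and 7.48 FPKM under the Col-0 and *ali1* labels) and −1.11 after oxo-C14-HSL (9.23 and 4.15). For *At4g08780* the ratio was 1.06 after acetone, from 2.64 and 5.46 FPKM, and −1.75 after oxo-C14-HSL, from 5.33 and 1.49. The ratios of *At5g37990* were 1.03 and −1.30, from 2.88 and 5.81 FPKM after acetone and 6.43 and 2.51 after oxo-C14-HSL. The opposite signs are what selected these genes. Of all loci measured, 40 were at least 2-fold higher after acetone and at least 2-fold lower after oxo-C14-HSL, 30 of them protein-coding, and 8 the reverse, none of them protein-coding.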

How the results depend on the processing

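No paired analysis was possible because the tables hold 1 pooled value per group, and for the same reason no library could be left out. The counts of loci at least 2-fold higher, at least 2-fold lower and past 2-fold the same way in both pretreatments (312, 131 and 52) moved by more than 1.5 times as follows. With a pseudocount of 1 they were 134, 62 and 24, without a filter 832, 423 and 150, and with at least 5 FPKM in either group 105, 38 and 14. A mean of at least 1 FPKM left 31 in both pretreatments. At 1.5-fold they were 963, 325 and 166, and at 4-fold 71, 43 and 16. Among protein-coding genes alone, centred on their own median and added after the data were seen, 62 were lower (60 with the centring on all loci) and 22 the same way in both. The other alternatives kept these counts within 1.5 times. List medians kept their sign under all alternatives run in 23 of 26 lists, and the exceptions were the cell division, flg22 and flower and seed lists, whose medians were 0.02, −0.02 and 0.09. The heat shock median stayed between −0.84 and −0.74 and the glucosinolate and camalexin median between 0.68 and 0.82, while those of the phosphate (0.13 to 0.81), cell wall (0.16 to 0.62), salicylic acid (0.18 to 0.52), auxin (0.18 to 0.43) and shoot (0.07 to 0.31) lists moved more. Ratios of loci at or near 0 in 1 group depend on the pseudocount: *MRD1* was at −3.38 with a pseudocount of 1. Differences of weakly expressed loci cannot be set against an error, since the depth is unknown.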

Other observations

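Some of the largest ratios among protein-coding genes lay outside the lists, and the genes given here were chosen after their values were seen. *FSD1*, the iron superoxide dismutase of the chloroplast and cytosol, was at 11.8 FPKM under the Col-0 label and 66.4 under the *ali1* label after acetone, a log2 ratio of 2.53, and at 38.7 and 27.0 after oxo-C14-HSL. The copper/zinc superoxide dismutase genes *CSD1* (318.3 and 301.4) and *CSD2* (571.8 and 548.1) were close under both labels after acetone. The extensin-like gene *At2g43150* was at 68.3 and 161.8 after acetone (1.29) and at 120.0 and 109.1 after oxo-C14-HSL. *TBL26*, of a family of wall polysaccharide acetyltransferases, was at 9.12 and 24.1 (1.43), and at 14.1 and 24.9. The plastid glucose 6-phosphate transporter gene *GPT2* was at 4.62 and 12.0 (1.40), and at 9.44 in both groups after oxo-C14-HSL. In 4 of these genes, *FSD1*, *At2g43150*, *TBL26* and *GPT2*, the Col-0 acetone group was the lowest of all 4. It was also the lowest in 263 of the 312 loci at least 2-fold higher, which were chosen by these same acetone values.

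*At5g35935*, a pseudogene on chromosome 5 from 14083388 to 14089891, was at 0.14 FPKM in both groups labelled Col-0 and at 3.598 and 3.96 in those labelled *ali1*, a further locus where the values followed the label and not the pretreatment.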
